A study of Mus musculus with 8 samples.

Results

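The genes described here encode the proteins of the cytosolic ribosome. They are the protein-coding genes whose symbol begins with Rpl or Rps and a digit or with Rplp, together with Rpsa and Fau, without the Rps6k kinases and without symbols of pseudogenes. The rule gave 87 of the 52636 Ensembl genes in the counts: 46 of the large subunit, 32 of the small subunit, and 9 that are paralogs of a ribosomal protein or that carry such a symbol without being one. Transcripts were measured by RNA sequencing in wild-type C57BL/6 primary microglia, the macrophages of the brain, and the methods name C57BL/6N pups without saying which assay used them. The LPS group (4 libraries) received lipopolysaccharide, a component of the bacterial outer membrane, at 5 µg/ml for 24 h. The Vehicle group (4 libraries) received the carrier alone, and both groups were kept in DMEM with 10% serum and 10 ng/ml CSF-1, the growth factor on which microglia depend. The cells had been shaken off mixed glial cultures of neonatal mouse brain, so the cultures started among astrocytes. The samples are numbered as biological replicates 1 to 4, but nothing states that they came from separate animals, and p-values measure the spread between these libraries.

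Each ribosome is built from a small subunit, which reads the mRNA, and a large subunit, which forms the peptide bond, and their proteins fold onto ribosomal RNA in the nucleolus. Their mRNAs begin with a 5′ terminal oligopyrimidine tract (TOP), a C followed by pyrimidines, through which their translation is controlled by the mTOR kinase and the RNA-binding protein Larp1. Mammalian genomes hold many processed pseudogenes of these genes, which are copies of the mRNA pasted back into the genome. In macrophages, protein synthesis and its control are part of the response to bacterial products, and single ribosomal proteins such as Rpl13a have been linked to the silencing of inflammatory mRNAs.

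The libraries held 20071921 to 30604447 counts. The normalization factors (TMM, trimmed mean of M values) were 1.21 to 1.32 in Vehicle and 0.701 to 0.833 in LPS, so the normalized counts (CPM, counts scaled to a common library size) of LPS libraries are raised relative to raw totals. All 10 microglial markers of a fixed list passed the filter on low counts, and their summed level was 11025 to 13707 CPM in Vehicle and 2341 to 2682 CPM in LPS. The 8 astrocyte markers summed to 20.5 to 46.6 CPM in Vehicle and 41.0 to 124 CPM in LPS, although 1 of them was called higher, 3 lower and 4 not called, with a median log2 fold change of -0.91. The 8 markers of oligodendrocytes and their precursors summed to 92.9 to 146 CPM and 17.6 to 23.5 CPM. The 8 neuronal markers summed to 14 to 48.3 CPM and 4.94 to 22 CPM. The 5 endothelial markers summed to 31 to 73.5 CPM and 163 to 254 CPM, with Cldn5 and Tek at no more than 3 counts in any library. Of the tested markers, 9 of 10 microglial, 4 of 6 oligodendrocyte and 5 of 6 neuronal ones were called lower. All 3 tested endothelial markers were called higher. Among all tested genes, 33.8% were lower and 30.3% higher. The part of these shifts in the results below was not tested. In bulk RNA, fewer cells of a type and less marker RNA per cell cannot be told apart.

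Many reads of ribosomal protein mRNAs cannot be told from reads of their pseudogenes, and the deposited counts hold only reads of 50 bases that aligned to 1 place. Each transcript was cut into windows of 50 bases, and each window was compared with the transcripts of all other genes (GENCODE vM21, GRCm38). Shares of windows refer to the principal transcript of each gene, and numbers of pseudogenes to all its transcripts. Over all transcripts, the share more than 2 mismatches from every other gene, called unique, was different. It was 39.7% rather than 5.75% for Rpl5 and 50.4% rather than 69.6% for Rpl15. In the median gene of the 87, 35.5% of windows lay more than 2 mismatches from every other gene, and 48.3% had no exact copy elsewhere. Of the 87 genes, 84 shared at least 10 windows with a pseudogene, the median number of such pseudogenes was 11, and Rpl7a had the most with 147. The next lines show windows from the coding part of 2 transcripts. They were chosen because they show a read that cannot be placed (Rps6, chr4, bases 435 to 484 of 878) and a read that 2 differing bases can place (Rpl4, chr9, bases 660 to 709 of 1538). Capitals mark the bases that differ between the gene and its pseudogene.
Rps6: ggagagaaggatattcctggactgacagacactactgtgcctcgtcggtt
Rps6-ps4 (chr2): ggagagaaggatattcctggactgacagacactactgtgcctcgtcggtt
Rpl4: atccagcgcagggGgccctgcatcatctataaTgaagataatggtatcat
Gm5835 (chr1): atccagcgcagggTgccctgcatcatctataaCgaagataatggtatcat

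Genes with many copied windows tended to have few counts. Rps6, the substrate of the S6 kinases, had 0, 0, 1 and 1 counts in the Vehicle libraries and 0, 0, 0 and 1 in the LPS libraries. Rpl8, a protein next to the peptidyl transferase centre, had the highest level per length, 431 ± 45.8 RPKM in Vehicle (the CPM divided by the length of the principal transcript in kilobases, SD, n = 4), and 91.3% of its windows were unique. Across the 87 genes, the share of windows without an exact copy and the RPKM in Vehicle correlated with Spearman's rho of 0.549, a description over genes that share libraries. The relation was loose: Rplp1 reached 156 RPKM (77.8 CPM) in Vehicle with 41.1% of windows without an exact copy and 6.67% unique. The counts describe uniquely placed reads, and what part copies had in low counts was not tested. A count of 0 in a library allows up to 3 counts, which is 0.0952 to 0.107 CPM in Vehicle and 0.140 to 0.180 CPM in LPS and covers counting error only.

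**Figure D1:**
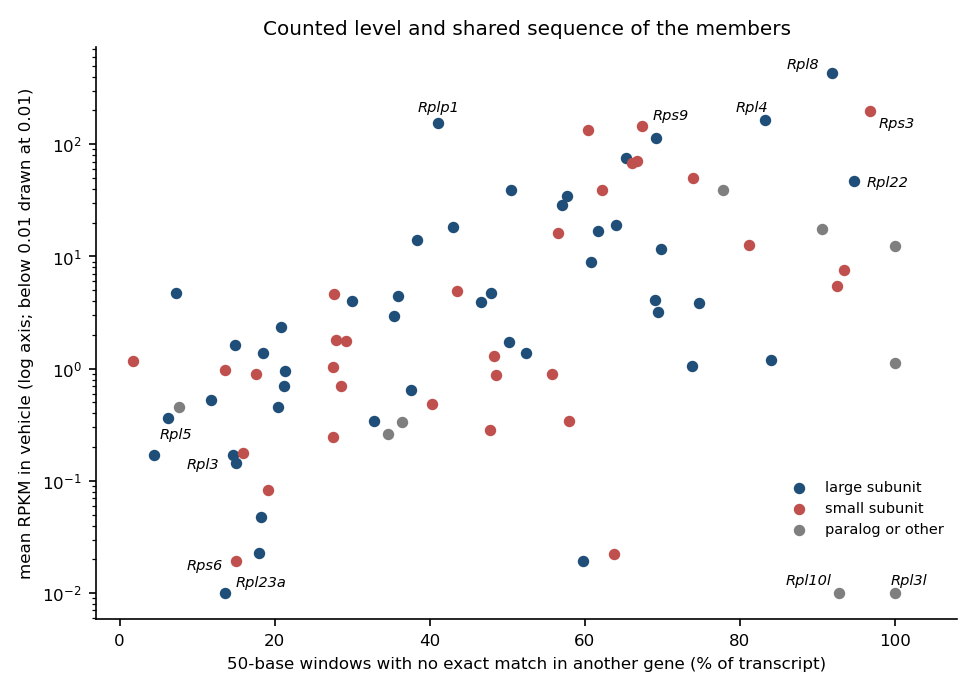
Each point is 1 of 85 of the genes, with the percentage of 50-base windows of its transcript that have no exact copy in another gene on the horizontal axis and its mean RPKM in the 4 Vehicle libraries on a logarithmic vertical axis, colored by subunit. Rpl8 and Rps3 stand at the upper right and Rps6 and Rpl23a at the lower left, and the paralogs Rpl3l and Rpl10l lie at the bottom although few of their windows have an exact copy.

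The start sites were read from RefSeq promoter sequences (GRCm38.p6), which held 67 of the 87 genes and 27025 genes in all. Each line below runs from 18 bases before to 12 bases after the annotated start, with the letters CTTTC, a short pyrimidine run searched on the same strand, in capitals. The 6 genes were chosen to show members with and without these letters among those that were lower after LPS (Rpl4, Rpl15, Rpl5, Rpl27a), higher (Rpl39l) and not called (Rps9).
Rpl4, chr9:64173369-64173398, plus strand: tCTTTCcttttcctgtgggagcagccgggt
Rpl15, chr14:18270975-18271004, minus strand: attgtgggagaaagccttcttcCTTTCctc
Rpl5, chr5:107900510-107900539, plus strand: CTTTCtcacgtcgcttgcgtgctggtggtg
Rpl27a, chr7:109519177-109519206, plus strand: cgagacttcgtgagctcctcccttttccct
Rpl39l, chr16:10170210-10170239, plus strand: tagctcccaggcCTTTCcggatttccggtg
Rps9, chr7:3704023-3704052, plus strand: ccaaccgccttgtctctctttgtctcgggc
CTTTC stood in this window in 18 of the 67 genes (26.9%) and in 4.91% of all genes. The letters CCGGAAG, a core bound by ETS factors, were found on either strand anywhere in the promoter sequence in 26 of the 67 (38.8%) and in 9.93% of all genes. Among the 31 genes called lower after LPS that had a promoter sequence, 22.6% held CTTTC and 45.2% held CCGGAAG. Among the 20 other tested genes with a sequence, the shares were 30% and 45%. A match describes the letters only.

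Ribosomal protein genes took a smaller share of the reads after LPS. Their summed counts were 0.301%, 0.269%, 0.320% and 0.287% of all counts in Vehicle replicates 1 to 4 and 0.115%, 0.103%, 0.0815% and 0.113% in LPS replicates 1 to 4. Every LPS library lay below every Vehicle library, with means of 0.294 ± 0.0214% and 0.103 ± 0.0152% (SD, n = 4). The 1303 pseudogenes that share windows with these genes also took a smaller share, from 0.0817 ± 0.00876% to 0.0295 ± 0.00374% of counts. These are shares of raw totals. Without the 196 other genes that exceed 0.1% of the counts in a library, the shares were 0.423% in Vehicle and 0.178% in LPS.

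**Figure D2:**
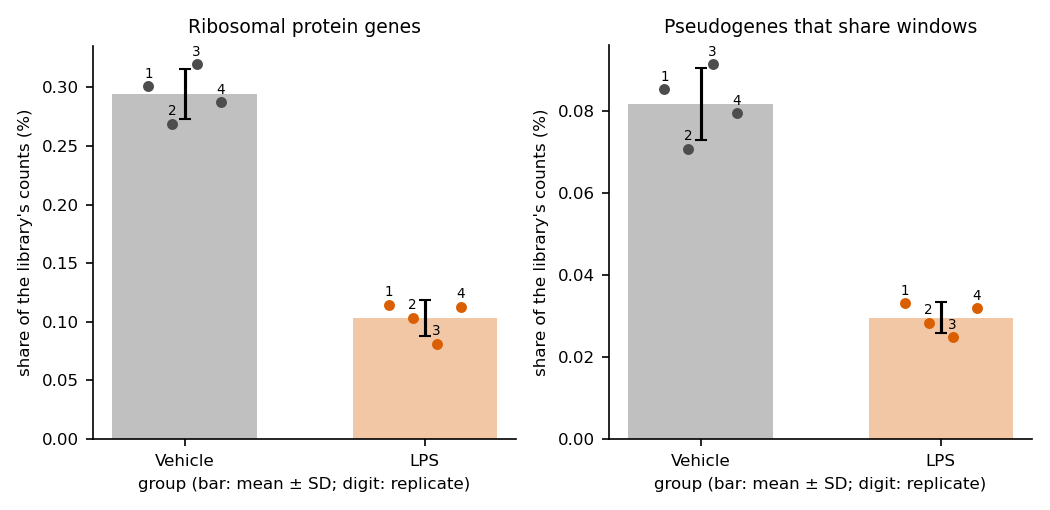
Bars show the mean percentage of each library's counts in the 87 ribosomal protein genes (left) and in the 1303 pseudogenes that share windows with them (right), with the SD of 4 libraries, and each point is a library labelled with its replicate number. Both shares are lower in all 4 LPS libraries than in any Vehicle library, and LPS replicate 3 is the lowest in both.

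Gene by gene, 64 of the 87 passed the filter on low counts and were tested with edgeR (quasi-likelihood, two-sided, Benjamini-Hochberg adjustment over 13847 genes, threshold 0.05). Of these, 42 were lower after LPS, where 33.8% of all tested genes were lower, and 2 were higher, where 30.3% of all tested genes were higher. Thus 65.6% of the tested ribosomal protein genes were called lower. Their median log2 fold change was -1.09, beside -0.11 for all tested genes. The 4 LPS libraries lay wholly below the 4 Vehicle libraries in 45 of the 64 genes, as in 31.5% of all tested genes, and wholly above in 2, as in 28.7%. The filter passed 18 genes whose LPS libraries did not all reach its level of 0.443 CPM (before TMM) while all Vehicle libraries did. Such genes could pass through the higher group alone. Of those described below, they include Rpl5, Rpl7a, Rpl11, Rpl12, Rpl27, Rpl30, Rpl39, Rplp2, Rps2, Rpsa and Fau. Among the 44 genes at that level in all 8 libraries, 33 were lower and 2 higher, with a median of -1.09. With a filter of at least 10 counts in every library instead, 36 of 46 were lower and 2 higher. Of all 11203 genes under that filter, 34.5% were lower and 32.1% higher.

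**Figure D3:**
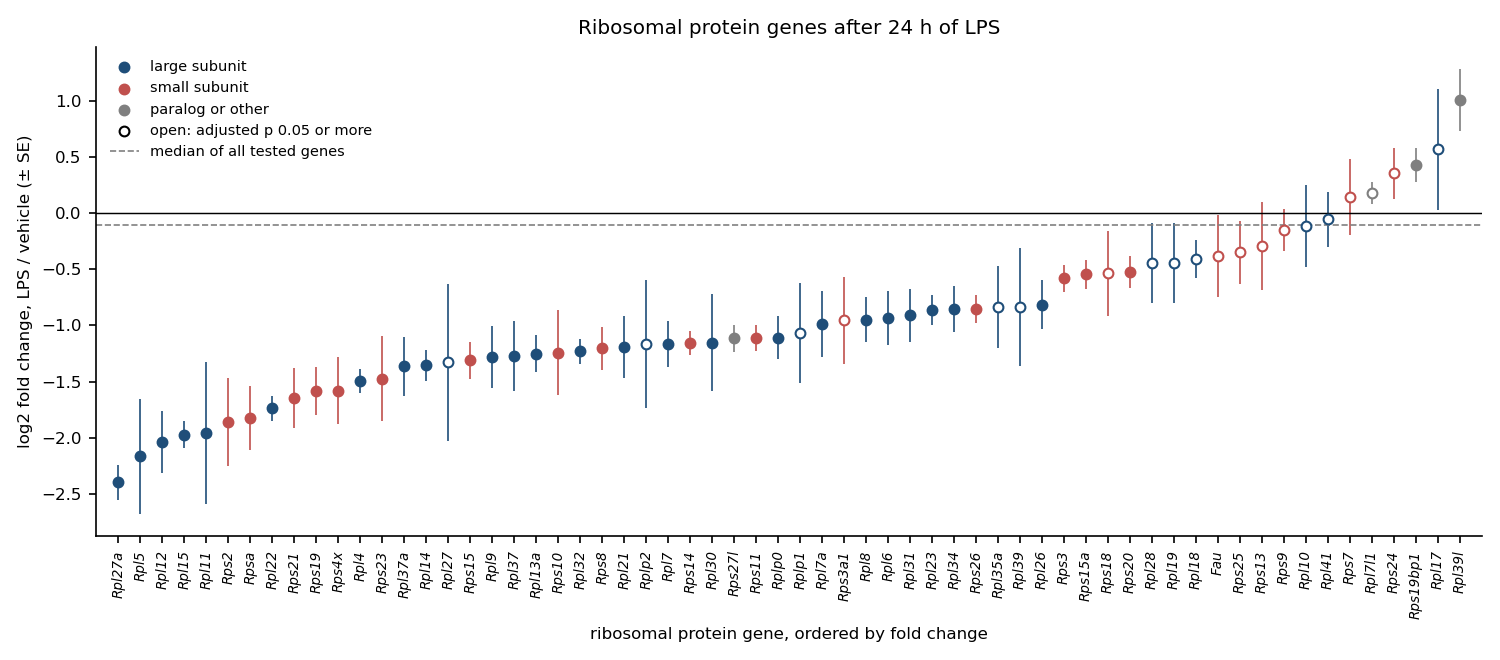
Points show the log2 fold change of LPS over Vehicle with its standard error for 62 of the tested genes, ordered by size and colored by subunit, with open points for adjusted p of 0.05 or more and a dashed line at the median of all tested genes, -0.11. The series runs from Rpl27a at -2.40 to Rpl39l at 1.00, and 56 of the 62 points lie below 0.

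The large subunit had 36 tested genes, of which 25 were lower and 0 higher after LPS (edgeR), with a median log2 fold change of -1.15. The remaining 11 did not pass the threshold. The 5 lowest values of all 64 genes belonged to this subunit (Rpl27a, Rpl5, Rpl12, Rpl15 and Rpl11). Of these genes, Rpl5, Rpl12 and Rpl11 could pass the filter through Vehicle alone, so the ranking is a description and no support. Rpl27a, a protein of its core (chr7:109519147-109522367), measured 21.7, 19.9, 24.3 and 21.7 CPM in Vehicle and 4.25, 3.54, 5.22 and 3.57 CPM in LPS. The groups were far apart, with a log2 fold change of -2.40 ± 0.16 (SE, adjusted p = 1.6e-06). Rpl15, a large subunit protein whose transcript was 69.6% unique, went from 19.3, 22.9, 24.5 and 22.7 CPM to 5.69, 5.83, 5.55 and 5.73 CPM. All 4 LPS libraries lay within a narrow band, and the log2 fold change was -1.97 ± 0.12 (adjusted p = 9.28e-07). Rpl12, a protein at the base of the stalk where elongation factors dock, had few reads, with 1.86, 2.28, 2.41 and 1.95 CPM in Vehicle and 0.359, 0.490, 0.653 and 0.541 CPM in LPS (log2 fold change -2.04 ± 0.28, adjusted p = 0.000149).

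Rpl5 and Rpl11 enter the large subunit together with 5S ribosomal RNA, and outside the ribosome this complex binds Mdm2, the ligase that degrades p53. Both had low counts, and no LPS library of either reached the level of the filter, which they passed through Vehicle alone. Before TMM, such genes had to be lower in every LPS library than in any Vehicle library, so their values are a description and no support. Rpl5 measured 0.70, 0.900, 0.888 and 0.497 CPM in Vehicle and 0.359, 0.0545, 0.0933 and 0.162 CPM in LPS, with a log2 fold change of -2.17 ± 0.51 (edgeR adjusted p = 0.00419). Only 5.75% of its windows were unique, and 26.7% of its exon bases overlap Fam69a or Snord21. Rpl11 measured 0.385, 0.450, 0.698 and 0.604 CPM in Vehicle and 0.12, 0, 0.0933 and 0.325 CPM in LPS, with a log2 fold change of -1.96 ± 0.63 (adjusted p = 0.0212). Without Vehicle replicate 3, Vehicle replicate 4 or LPS replicate 3, the Rpl11 value was -1.74, -1.87 and -1.80, with an adjusted p of 0.0534, 0.0558 and 0.0535.

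Rplp0, Rplp1 and Rplp2 form the acidic stalk that recruits the translation factors hydrolysing GTP. Rplp0 was lower, with 50.8, 43.5, 52.0 and 42.9 CPM in Vehicle and 28.7, 20.1, 14.5 and 24.5 CPM in LPS (log2 fold change -1.11 ± 0.19, edgeR adjusted p = 0.000662). Rplp1 measured 79.3, 71.0, 97.2 and 63.6 CPM in Vehicle and 58.7, 35.2, 8.67 and 46.0 CPM in LPS. The groups did not overlap, but LPS replicate 3 was far below the other LPS libraries, and the log2 fold change of -1.07 ± 0.44 missed the threshold (adjusted p = 0.0575). With replicate numbers as a block it was -1.26 (adjusted p = 0.0464), and without LPS replicate 3 it was -0.73 (adjusted p = 0.0106). It also passed with DESeq2 (adjusted p = 0.0407) and, in edgeR, with upper quartile normalization (0.0451), raw library totals (0.00991) or no filter (0.0256). Without LPS replicate 1 the edgeR adjusted p was 0.0288. Leaving out LPS replicate 2, LPS replicate 4 or any Vehicle library gave 0.074 or more. Rplp2 measured 3.12, 1.97, 4.38 and 2.80 CPM in Vehicle and 2.75, 0.708, 0.280 and 1.79 CPM in LPS, the groups overlapped, and the log2 fold change was -1.17 ± 0.57 (adjusted p = 0.097). Without LPS replicate 1 it was -1.73 (adjusted p = 0.0239).

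Further large subunit proteins with known roles were lower as well. Rpl4, whose loop lines the tunnel through which the new chain leaves, measured 255, 231, 269 and 250 CPM in Vehicle and 97.2, 80.3, 92.8 and 86.4 CPM in LPS. This was 2.82-fold lower, with a log2 fold change of -1.49 ± 0.10 (edgeR adjusted p = 2.2e-06). Rpl8, the most abundant per length, measured 381, 340, 416 and 331 CPM in Vehicle and 228, 193, 119 and 221 CPM in LPS (log2 fold change -0.95 ± 0.20, adjusted p = 0.00205). Its LPS replicate 3 was again the lowest, and the groups did not overlap. Rpl22, which also binds other RNAs and is needed for T cell development, measured 99.4, 86.1, 106 and 94.0 CPM in Vehicle and 32.4, 27.3, 30.8 and 25.2 CPM in LPS (log2 fold change -1.74 ± 0.11, adjusted p = 1.63e-06). Its groups were far apart, and 87.8% of its windows were unique. Rpl13a, which can leave the ribosome to repress inflammatory mRNAs, measured 21.2, 16, 22.1 and 17.4 CPM in Vehicle and 6.58, 9.75, 7.18 and 8.71 CPM in LPS (log2 fold change -1.25 ± 0.17, adjusted p = 0.000138). Of its exon bases, 35.4% overlap other annotated genes, including Snord33.

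The small subunit had 24 tested genes, of which 16 were lower and 0 higher, with a median log2 fold change of -0.90, and 8 did not pass the threshold. Rps2, at the entry of the mRNA channel, measured 1.89, 1.59, 2.41 and 1.88 CPM in Vehicle and 0.778, 0.599, 0.187 and 0.595 CPM in LPS (log2 fold change -1.86 ± 0.39, edgeR adjusted p = 0.0022). It shared windows with 87 pseudogenes. Rpsa, the protein also known as laminin receptor precursor, measured 2.14, 1.63, 1.71 and 1.42 CPM in Vehicle and 0.539, 0.490, 0.373 and 0.541 CPM in LPS (log2 fold change -1.82 ± 0.28, adjusted p = 0.000332). Rps3, which sits beside Rps2 at the mRNA entry and has also been described as a partner of NF-κB, measured 398, 323, 433 and 348 CPM in Vehicle and 259, 242, 244 and 258 CPM in LPS. Its change was smaller but the groups stood apart, with a log2 fold change of -0.58 ± 0.12 (adjusted p = 0.00187). Rps19, the gene most often mutated in Diamond-Blackfan anaemia, was lower by 3-fold (log2 fold change -1.58 ± 0.21, adjusted p = 0.000136), from 12.4 ± 2.98 to 4.16 ± 0.731 CPM (SD, n = 4). Rps20 had the smallest change of the genes called lower, -0.53 ± 0.14 (adjusted p = 0.00796), and Rps15a, with 90.7% unique windows, was close to it at -0.55 ± 0.13 (adjusted p = 0.00424).

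**Figure D4:**
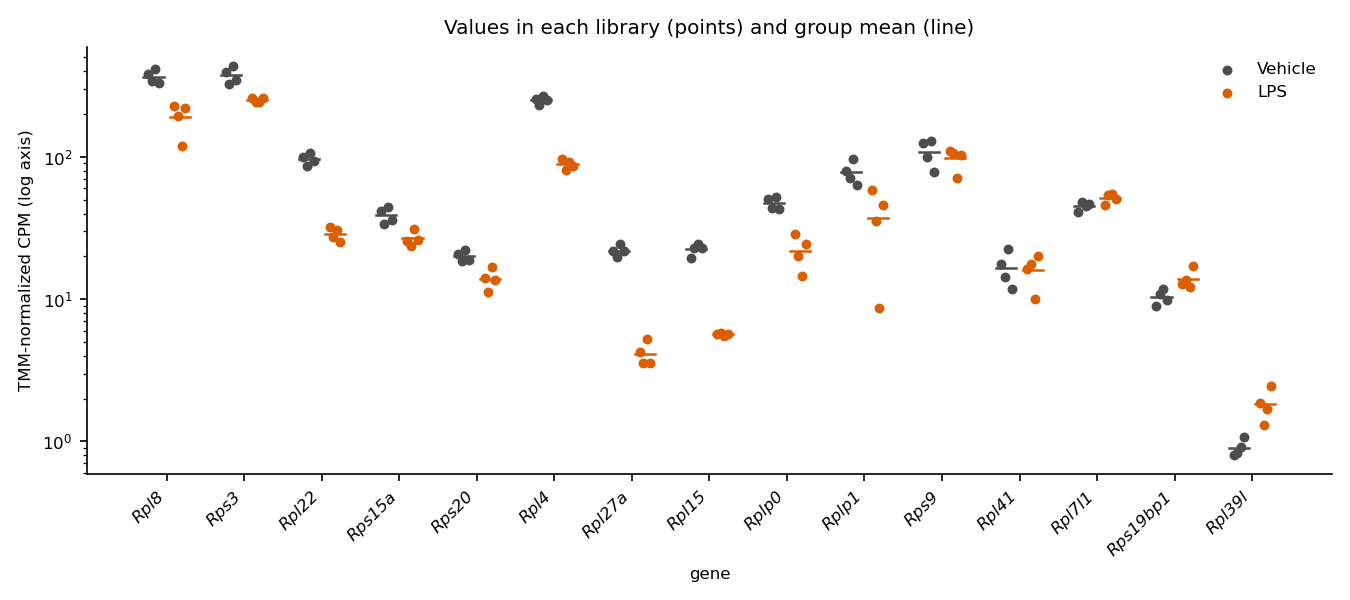
Points give the TMM-normalized CPM of each library on a logarithmic axis for 15 genes, gray for Vehicle and orange for LPS, with a short line at each group mean. The groups are separate for Rpl8, Rps3, Rpl22, Rpl4, Rpl27a and Rpl15, they overlap for Rps9, Rpl41 and Rpl7l1, and LPS lies above Vehicle for Rps19bp1 and Rpl39l.

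Of the 64 tested genes, 20 did not pass the threshold. Of these, 16 had a negative and 4 a positive log2 fold change, between -1.33 (Rpl27) and 0.57 (Rpl17), and 14 were under 5 CPM in Vehicle. Rpl27 had no count in LPS replicate 3, and without that library its log2 fold change was -0.89 (edgeR adjusted p = 0.0447). Rps9, a small subunit protein at high level, measured 125, 99.3, 130 and 77.9 CPM in Vehicle and 109, 106, 71.1 and 104 CPM in LPS. The groups overlapped, and the log2 fold change was -0.15 ± 0.19 (edgeR adjusted p = 0.505). Rpl41, among the smallest of all proteins, measured 17.7, 14.4, 22.5 and 11.9 CPM in Vehicle and 16.2, 17.7, 9.98 and 20.1 CPM in LPS (log2 fold change -0.06 ± 0.25, adjusted p = 0.849). Rps24, which takes part in processing the precursor of small subunit RNA, measured 17.9, 17.6, 23.5 and 22.1 CPM in Vehicle and 17.3, 23.5, 38.9 and 23.6 CPM in LPS (log2 fold change 0.35 ± 0.23, adjusted p = 0.2). LPS replicate 3 was its highest library, in contrast to Rps9. Rps7 and Rpl17 stayed under 1 CPM in Vehicle, with adjusted p of 0.732 and 0.374. Rps7 measured 0.455, 0.346, 0.603 and 0.462 CPM in Vehicle and 0.419, 0.599, 0.653 and 0.379 CPM in LPS. Rpl17 measured 0.35, 0.554, 0.634 and 0.639 CPM in Vehicle and 0.658, 0.490, 1.77 and 0.270 CPM in LPS, so that LPS replicate 3 alone lay above all other libraries by a wide margin. Its log2 fold change was 0.57, and -0.21 without that library. For such genes the adjusted p does not show that the level was the same.

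Of the ribosomal proteins made as a fusion, Rps27a carries ubiquitin and Fau a ubiquitin-like domain at its front. Rps27a had 8, 2, 10 and 3 counts in Vehicle and 2, 1, 0 and 1 in LPS and was not tested. Fau measured 0.665, 0.623, 0.571 and 0.710 CPM in Vehicle and 0.239, 0.762, 0.420 and 0.541 CPM in LPS, with overlapping groups and a log2 fold change of -0.38 ± 0.37 (edgeR adjusted p = 0.382). Altogether 23 of the 87 genes did not pass the filter. Their highest count in any library was 17, 8 of them had no more than 3 counts in every library, and Rpl10l and Rpl23a had 0 in all. They include genes that every cell uses, such as Rpl3 at the catalytic centre, with 7, 6, 7 and 7 counts in Vehicle and 3, 2, 1 and 0 in LPS, where 6.13% of windows were unique. Rpl38 and Rps29 had no more than 2 counts in any library although 57.3% and 59.4% of their windows were unique. Without the filter, 3 of the 21 with any count were lower and 1 was higher, where 20.4% and 16.6% of 25424 genes were lower and higher.

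The 9 paralogs and other genes with such symbols did not share 1 direction. Rps27l, a paralog of Rps27 induced by p53, was lower, with 18.6, 18.3, 21.4 and 19.3 CPM in Vehicle and 9.81, 7.95, 9.70 and 8.33 CPM in LPS (log2 fold change -1.12 ± 0.12, edgeR adjusted p = 3.65e-05). Rpl39l, a paralog of Rpl39 known from the testis, was higher at a low level, with 0.805, 0.830, 0.920 and 1.07 CPM in Vehicle and 1.86, 1.31, 1.68 and 2.43 CPM in LPS (log2 fold change 1.00 ± 0.28, adjusted p = 0.00987). With raw library totals it was 0.33 (adjusted p = 0.319). Rpl39 itself measured 0.910, 0.623, 0.793 and 0.604 CPM in Vehicle and 0.539, 0.327, 0.70 and 0.0541 CPM in LPS, with overlapping groups (log2 fold change -0.84 ± 0.53, adjusted p = 0.186). Rps19bp1, a binding partner of Rps19 and of the deacetylase Sirt1 and no ribosomal protein, was the other gene called higher. It measured 9.0, 10.9, 11.7 and 9.84 CPM in Vehicle and 12.7, 13.6, 12.3 and 17 CPM in LPS (log2 fold change 0.43 ± 0.15, adjusted p = 0.028). This call depended on the libraries and on the scaling: without Vehicle replicate 1, Vehicle replicate 4 or LPS replicate 4 the adjusted p was 0.0649, 0.0652 and 0.0801, and with raw library totals the value was -0.24. Rpl7l1, a factor in large subunit assembly, measured 40.8, 48.5, 45.3 and 46.9 CPM in Vehicle and 46.0, 54.3, 54.5 and 50.2 CPM in LPS (log2 fold change 0.18 ± 0.10, adjusted p = 0.134). The other 5 were not tested. Rpl3l, the paralog of Rpl3 in striated muscle, had 0 counts in all Vehicle libraries and 1, 1, 6 and 3 in LPS. Rpl22l1 had 4, 1, 7 and 5 counts in Vehicle and 0, 1, 1 and 1 in LPS. Rpl36al had 6, 5, 8 and 2 counts in Vehicle and 4, 5, 6 and 2 in LPS. Rps27rt had 4, 4, 7 and 5 counts in Vehicle and 0, 0, 5 and 0 in LPS, and these few reads allow no comparison.

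In both genes with many and genes with few copied windows, the share called lower among those tested was above the 33.8% of all tested genes. Of the 87 genes, 26 had at least 50% unique windows in the principal transcript, and 22 of them were tested: 14 were lower and 2 higher, with a median log2 fold change of -0.85. Of the 61 genes below 50%, 42 were tested: 28 were lower and 0 higher, with a median of -1.13. Both classes include genes that could pass the filter through Vehicle alone, which were not left out of these counts. Among them are Rpl5, Rpl11, Rpl12 and Rps2 below 50% and Rpsa and Rplp2 above it. The median level in Vehicle over all members of each class was 4.76 RPKM and 1.38 RPKM. The fold change of the 64 tested genes showed little relation to the share of windows without an exact copy (Spearman's rho 0.108), to transcript length (-0.094) or to mean level (-0.00211), as descriptions across genes that share libraries. More than 20% of the exon bases overlapped another gene in 8 tested genes, among them Rpl5, Rpl13a and Rpl32.

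LPS replicate 3 was the lowest LPS library for 28 of the 64 tested genes, and LPS replicates 1, 2 and 4 were for 11, 17 and 8. On the log2 scale with 0.5 CPM added, its median difference from the other LPS libraries was -0.26 for the 39 genes with transcripts under 1000 bases and -0.05 for the 25 longer ones. Among all tested protein-coding genes it was -0.13 for the 617 with transcripts under 1000 bases and 0.06 for the 11278 longer ones. Vehicle replicate 3 was the highest Vehicle library for 43 of the 64 genes. Without LPS replicate 3, 44 genes were lower and 2 higher, with a median log2 fold change of -0.98 (edgeR). Of all genes tested in that run, 35.0% were lower and 30.0% higher. Without Vehicle replicate 3, 39 were lower and 2 higher, with a median of -0.87. Here the shares of all tested genes were 31.9% lower and 30.8% higher.

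The mitochondrial ribosome has its own protein genes, named Mrpl and Mrps, and served as the nearest comparison. Of 78 such genes, 75 were tested, 26 were lower (34.7%) and 16 higher after LPS, and the median log2 fold change was -0.11, equal to that of all tested genes to 2 decimals. Their transcripts were 88.7% unique in the median. The difference between both groups of genes was not tested, since genes are not replicates.

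**Figure D5:**
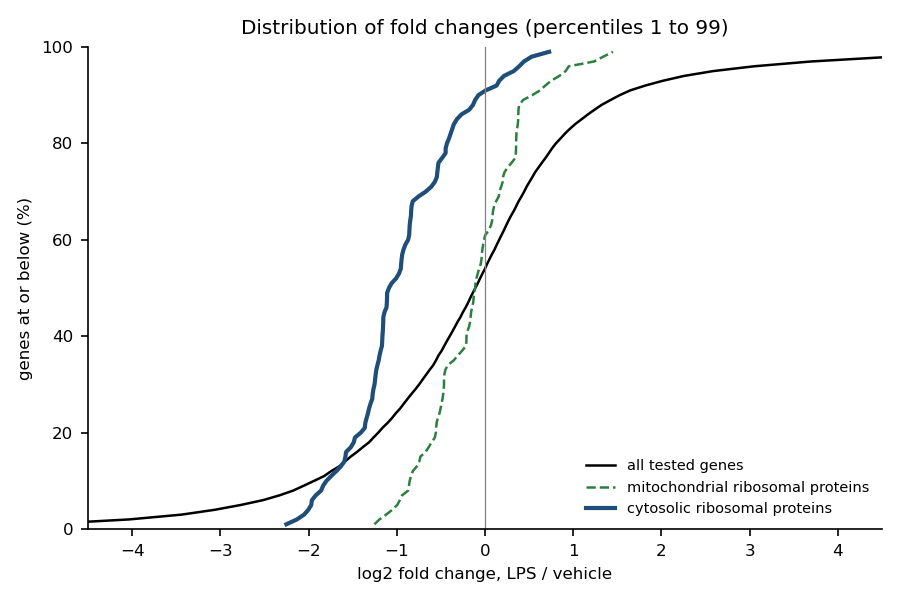
Cumulative curves give the percentage of genes at or below each log2 fold change, LPS over Vehicle, for all 13847 tested genes (black), 75 mitochondrial (green, dashed) and 64 cytosolic (blue) ribosomal protein genes. The blue curve reaches 50% at -1.09 and the other curves at -0.11, while its lower end does not reach as far down as that of all genes.

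The symbol rule leaves out ribosomal proteins with other names. Rack1, a scaffold protein on the head of the small subunit with 96.1% unique windows, measured 575, 503, 633 and 520 CPM in Vehicle and 283, 218, 208 and 254 CPM in LPS (log2 fold change -1.21 ± 0.14, edgeR adjusted p = 4.94e-05).

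Genes that work with the ribosomal proteins were taken as lists, read against the 33.8% lower and 30.3% higher among all tested genes. The counts of each list were not restricted to genes that reached the filter's level in both groups. Of 19 translation factors and other genes known for TOP mRNAs, 14 were lower and 0 higher, with a median log2 fold change of -0.83. Among them, the histone chaperone Nap1l1 fell to -2.42, from 83.4 ± 9.55 to 15.6 ± 1.38 CPM, and the elongation factor Eef1a1 to -1.43, from 401 ± 79.4 to 149 ± 43.2 CPM (SD, n = 4). This list also holds many copied windows, with a median of 50.7% unique. Of 51 ribosome biogenesis factors, 37 were lower and 2 higher, with a median of -0.65. The lowest were Gar1 of the pseudouridylation complexes (-2.21) and Wdr12 of large subunit assembly (-2.14), and those higher were Sbds (1.04) and Eif6 (0.82), which act at the last step of large subunit maturation. For Eif6 the groups overlapped, with LPS replicate 3 at 50.6 CPM beside 41.6 to 52.1 CPM in Vehicle. In this list the median was 98.0% unique windows. All genes named from these lists passed the threshold.

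Of 17 RNA polymerase I genes, 5 were lower and 3 higher, with a median log2 fold change of -0.10. They included the subunits Polr1b at -2.16 and Twistnb at -1.20 and, in the other direction, Znrd1 at 1.08 and the termination factor Ttf1 at 0.76. Of 21 genes of the mTOR pathway and of TOP control, 5 were lower and 8 higher (median 0.12). Deptor, an inhibitor of mTOR, had the lowest value, -5.62, from 20.4 ± 4.92 to 0.404 ± 0.220 CPM. The arginine sensor Castor1 was at -2.10. Before TMM, the LPS libraries of Deptor and of Castor1 did not all reach the level of the filter. Both genes could therefore pass it through Vehicle alone. Eif4ebp1, the translation repressor that mTOR phosphorylates, was at 1.90, from 19.0 ± 1.68 to 71.0 ± 15.9 CPM, and Ddit4, an inducible inhibitor of mTOR, at 2.17. Each of these 4 passed the threshold (edgeR adjusted p of 0.000307 or less).

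Of the 9 tested S6 kinase genes, 6 were lower and 2 higher, with a median of -0.56. Rps6ka5 was at -1.97 and its relative Rps6ka4 at 1.02, both kinases of histones and CREB. Rps6kb2, the second S6 kinase proper, was at 0.82. Rps6kl1, under 1 CPM in the mean, was at -1.58 (edgeR adjusted p = 0.0481), and without 1 library the adjusted p reached 0.136. Its LPS libraries measured 0.180, 0, 0.373 and 0.379 CPM, and none reached the level of the filter before TMM. Rps6kl1 passed through Vehicle alone, so its value and its place among the 6 lower genes are a description and no support. Of 11 tested chaperones and transport factors of ribosomal proteins, 6 were lower and 2 higher (median -0.39). Grwd1, a chaperone of Rpl3, was at -1.74, Heatr3, which carries Rpl5 into the nucleus, at -1.48, the export receptor Xpo1 at 0.42 and the histone chaperone Nap1l4 at 1.25. Of 18 genes of elongation, termination and ribosome quality control, 7 were lower and 4 higher (median -0.33). Eef2k, the kinase that slows elongation, was at -4.19, from 32.1 ± 3.37 to 1.76 ± 0.838 CPM, and Habp4, a protein of inactive ribosomes, at -1.49. The release factor Etf1 was at 0.77 and Ascc3, a helicase that takes apart collided ribosomes, at 1.55. With raw library totals, Eif6 (0.17), Ttf1 (0.07), Rps6ka4 (0.37), Rps6kb2 (0.14) and Etf1 (0.09) were no longer called, and Xpo1 was at -0.28.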

How the data were processed

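RNA of 8 cultures of primary murine microglia, 4 LPS and 4 Vehicle, was sequenced in single-end reads of 50 bases. The authors deposited raw counts, the uniquely aligned reads per Ensembl gene after GSNAP alignment to GRCm38 in HTSeqGenie, with no normalization. The annotation release and the use of strand are not given in the sources used here, and the labels and the methods name different kits and sequencers.

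Counts were tested with edgeR 4.0.16 in R 4.3.3 (TMM, filterByExpr with a minimum count of 10 and minimum total of 15, quasi-likelihood, two-sided, adjusted p threshold 0.05 over 13847 genes), checked on simulated data. CPM are TMM-normalized and RPKM use the length of the principal transcript. Windows of 50 bases at steps of 5 bases were aligned to GENCODE vM21 transcripts with bwa 0.7.19, allowing 2 mismatches. Of 94 symbols matched by the rule, 7 were left out as not protein-coding. Of 52636 IDs, 52403 had a symbol.

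Named genes are the 6 highest and 6 lowest fold changes, the paralogs, genes chosen by role, and, per list, the 2 highest and 2 lowest called genes. Others (Rpl3, Rpl4, Rpl8, Rpl38, Rps9, Rps15a, Rps19, Rps20, Rps29, Rpl27, Rpl39 and Rpl41) were picked with their values in view. Members and lists were chosen with earlier results of these data known. Same-numbered libraries deviated together (r of 0.361, 0.183, 0.183 and 0.130 for replicates 1 to 4), so a replicate block was tried, although Vehicle replicate 4 was closer to LPS replicate 2 (0.141). The closest pair of libraries in counts, LPS replicates 2 and 4, differed by more than sampling noise (chi-square per degree of freedom 6.45). The labels give no batch. Some genes count in the totals but are not reported singly here. Alternatives were DESeq2 1.42.0, other normalizations and filters, a stricter threshold of 0.01, and leaving out each library.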

Additional observations from a re-analysis of the deposited data

Results flagged for a closer look

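In each group of 4, the highest and lowest library of every tested gene and of the summed shares was compared with the others by Dixon's criterion, which by chance flags about 1 in 20 groups. Of 132 groups, 4 were flagged, 3 of them in LPS replicate 3. Rpl7 stood high in Vehicle replicate 3, at 5.61 CPM beside 4.19 to 4.27 CPM in the others, and again in LPS replicate 3, at 2.52 CPM beside 1.84 to 1.92 CPM. Rps26 stood low in LPS replicate 3, at 12.3 CPM beside 15.4 to 15.9 CPM, and Rps9 stood low in the same library, at 71.1 CPM beside 104 to 109 CPM.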

How the results depend on the processing

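The numbers of genes lower and higher after LPS (42 and 2) and the median log2 fold change (-1.09) were recomputed under each alternative. Leaving out each library in turn gave 38 to 45 lower, 1 to 2 higher and a median of -1.13 to -0.87. In these runs, 28.6% to 35.0% of all tested genes were lower and 27.6% to 30.8% higher. Upper quartile normalization gave 46 lower and 1 higher and shifted the median of all genes by -0.16, raw library totals gave 57 lower, 0 higher and a median of -1.73 and shifted it by -0.68, and relative to all genes the median was -0.94 with raw totals and -0.98 with TMM. With raw totals, 61.1% of all genes were lower and 14.4% higher. With upper quartile normalization, the shares of all genes were 39.6% and 25.9%. The stricter threshold left 1 higher, leaving out the paralogs left 0, and genes with at least 50% unique windows, an alternative chosen after seeing the data, gave 14 lower of 22. A comparison with the whole genome was not run, since only transcripts were at hand. DESeq2, run without the filter on low counts, gave 46 lower and 3 higher of 85, of which 4 had no adjusted p. Of all 25424 genes in that run, 19.3% were lower and 19.0% higher. The replicate block gave 43 lower and 2 higher and changed no call other than that of Rplp1. With the block, 35.6% of all tested genes were lower and 29.7% higher. Without the abundant genes in the denominator, the shares of counts were 0.423% and 0.178%. The sign changed with raw totals for Rpl17 (-0.16), Rpl7l1 (-0.51), Rps19bp1 (-0.24), Rps24 (-0.35), Rps7 (-0.54) and Xpo1 (-0.28), and with upper quartile normalization for Rps7 (-0.021). It changed when 1 library was left out for Rpl10 (-0.38 to 0.19), Rpl17 (-0.21 without LPS replicate 3, to 0.86), Rpl41 (-0.18 to 0.19) and Rps9 (-0.25 to 0.016). Of the genes called lower, 5 lost the call without some single library, among them Rpl7a (adjusted p up to 0.0506), Rpl11 (0.0558), Rpl30 (0.102) and Rps10 (0.0592). The cause was not tested. Rpl7a, Rpl11 and Rpl30 could pass the filter through Vehicle alone. Using the union of exons as length moved 60 of 64 RPKM values by more than their SD. Depth limits what can be said of the genes with few counts.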
